A study of Homo sapiens with 6 samples.

Results

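The genes described here are those of Wnt ligands, their receptors and the proteins that restrain them at the cell surface, in a line of human prostate epithelial cells with lowered PKCλ/ι. They were chosen by symbol: genes whose name begins with WNT, FZD, SFRP or DKK followed by a digit, together with LRP5, LRP6, WIF1, AXIN2, LGR4, LGR5, RNF43 and ZNRF3. This gave 45 of the 18404 genes measured, made up of 19 Wnt ligands, 10 Frizzled receptors, 2 LRP co-receptors, 4 secreted Frizzled-related proteins, 4 Dickkopfs and the 6 single genes WIF1, LGR4, LGR5, RNF43, ZNRF3 and AXIN2. PrEC is an immortalized line derived from normal prostate epithelium. RNA from 3 samples of PrEC cells with hairpin RNA against PKCλ/ι (shPKCi) and from 3 samples of PrEC cells carrying the hairpin named shNT was hybridised to 1 array each. Both lines grew in PrEGM medium and were harvested at 48 hours from plating, with no other treatment. The series calls the samples biological replicates, and whether each line is a clone or a pool, and whether 1 or several hairpins were used, was not given in the sources used here. The number of arrays limits the precision of every value below. In whole-culture RNA, fewer cells that express a gene and less of its RNA per cell cannot be told apart.

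Wnt proteins are lipid-modified secreted ligands that bind a Frizzled receptor, and with the co-receptors LRP5 or LRP6 they keep β-catenin from being degraded, so that it can act with TCF/LEF factors on genes in the nucleus. Secreted Frizzled-related proteins and WIF1 bind the ligands, and the Dickkopfs DKK1, DKK2 and DKK4 bind the LRP co-receptors. AXIN2, RNF43 and ZNRF3 are induced by the pathway and dampen it. In the prostate, Wnt signals are known for their part in budding of the gland and in progression of cancer.

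The hairpin's own target was checked first. PRKCI, which encodes PKCλ/ι, had intensities of 800.3, 810.2 and 754 in shPKCi cells, against 1635, 1428 and 1843 in shNT cells. Its log2 fold change was -1.05 ± 0.11 (SE; limma adjusted p = 0.000279), so the arrays followed their labels and PRKCI signal remained in shPKCi cells. Over all 18404 genes, 18.5% passed an adjusted p of 0.05, with 9.55% higher and 8.95% lower in shPKCi cells. These shares stand for 1758 and 1648 genes, and median centring of the arrays made them 2170 and 1321. One array, shNT replicate 2, differed from the rest: its correlations with the other arrays were 0.974 to 0.989 and its log2 interquartile range was 2.81, against 2.98 to 3.01 for the other 5 arrays. Of the basal keratins, KRT14 lay at 1210 to 1279 in shPKCi cells and 1499 to 1643 in shNT cells, and KRT15 at 29.6 to 38.0 in shPKCi cells and 39.3 to 52.9 in shNT cells. KLK3, the luminal marker PSA, lay at 31.7 to 35.6 in shPKCi cells and 28.8 to 59.9 in shNT cells. Of 10 basal epithelial markers measured, 6 were lower and 0 higher. At an unadjusted p under 0.05, limma gave 7 lower and 1 higher, against 14.7% and 15.0% of all genes. The log2 of their summed intensities, to which bright genes add most, was 13.36 to 13.39 in shPKCi cells against 13.64 to 13.75 in shNT cells. Their mean deviation, averaging each gene's log2 signal minus its mean over the 6 arrays, was -0.21 to -0.18 in shPKCi cells. In shNT cells it was 0.15 to 0.23. Of 7 luminal markers 1 was lower, ACP3, at 22.4 to 28.4 in shPKCi cells and 41.9 to 59.4 in shNT cells (log2 fold change -1.02; limma adjusted p = 0.00127). The log2 of the summed luminal intensities was 11.37 to 11.42 in shPKCi cells and 10.91 to 11.35 in shNT cells. KRT8 and KRT18, which did not pass (limma adjusted p of 0.0624 and 0.218), made up most of that sum. The luminal mean deviation was -0.12 to -0.02 in shPKCi cells and -0.09 to 0.23 in shNT cells, overlapping ranges. Of 12 fibroblast markers FAP and COL1A1, 2 in all, were lower. The log2 of the summed fibroblast intensities, mostly those of VIM and FAP, was 10.23 to 10.30 in shPKCi cells and 10.71 to 10.78 in shNT cells. Their mean deviation was -0.15 to -0.08 in shPKCi cells and 0.06 to 0.19 in shNT cells. FAP lay at 250.5 to 291 in shPKCi cells and 481 to 650.5 in shNT cells (log2 fold change -1.05; limma adjusted p = 0.000501), and VIM at 584 to 623 in shPKCi cells and 703 to 736 in shNT cells. DCN lay at intensities of 7.95 to 9.30 in shPKCi cells and 8.48 to 9.98 in shNT cells, near the lowest signals of the table. Of 11 endothelial and blood markers 1 was higher and 1 lower. The log2 of their summed intensities was 8.83 to 8.88 in shPKCi cells against 8.92 to 9.01 in shNT cells. Most of that sum was CD68, at 238 to 247 in shPKCi cells and 269 to 291 in shNT cells (limma adjusted p = 0.137). The mean deviation of these markers was -0.05 to 0.06 in shPKCi cells and -0.05 to 0.08 in shNT cells, overlapping ranges. PTPRC, the pan-leukocyte marker, lay at 7.03 to 7.54 in shPKCi cells and 7.18 to 7.71 in shNT cells. The part of these shifts in the Wnt values was not tested.

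Among the 45 Wnt genes, 3 were higher and 3 lower in shPKCi cells. DKK1, DKK2 and WNT7A rose, and SFRP1, DKK3 and FZD7 fell. The 6 genes are 13.3% of the set, a share below the 18.5% of all genes. Without shPKCi replicate 2, shPKCi replicate 3 or shNT replicate 1, SFRP1 alone was lower, so that count was 1. Over the 45, the median log2 fold change was -0.06, against -0.02 for all genes, and the median absolute log2 fold change was 0.14, against 0.16 for all genes. A change of at least 2-fold past the threshold occurred in 1 of the 45, DKK1, against 2.02% of all genes. The 3 shPKCi values lay entirely above or below the 3 shNT values in 14 of the 45 (31.1%), against 35.7% of all genes, with 7 of the 14 higher and 7 lower. By mean signal, 18 of the 45 lay above the median of all genes and 4 of them passed (22.2%, against 29.9% of all genes at such levels). The other 27 lay below it and 2 of them passed (7.41%, against 7.15%).

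**Figure D1:**
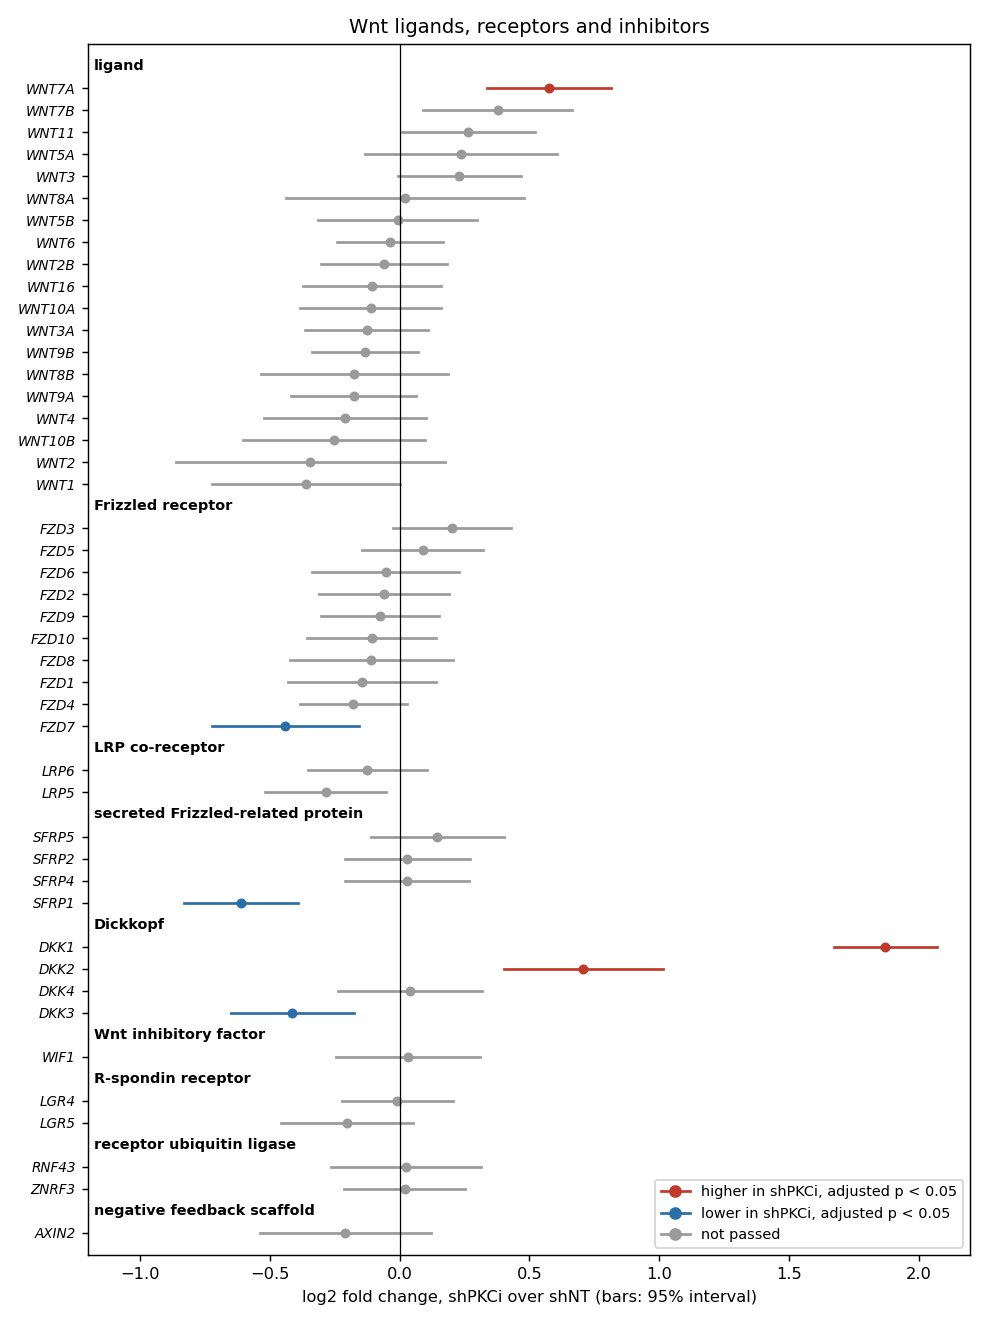
Log2 fold change of each of the 45 Wnt genes, shPKCi over shNT, on the horizontal axis, with genes grouped by role down the page; points are limma estimates from 3 arrays against 3, bars their 95% intervals, red marks genes higher and blue genes lower past the threshold. DKK1, at 1.87, stands apart from the others, whose estimates lie between -0.61 and 0.71.

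The promoters of DKK1 and WNT7A are shown because both genes rose and an upstream window was at hand for each. The windows are RefSeq's, build GRCh38.p14, from 250 bases before the transcription start to 50 after it. The table held windows for 29 of the 45 genes. The DKK1 window lies at chr10:52314031-52314330 on the plus strand. Capitals mark CTTTG on either strand, the core recognised by TCF/LEF factors, with TATAAA, the TATA box, and GGGCGG, the GC box bound by Sp factors.
DKK1: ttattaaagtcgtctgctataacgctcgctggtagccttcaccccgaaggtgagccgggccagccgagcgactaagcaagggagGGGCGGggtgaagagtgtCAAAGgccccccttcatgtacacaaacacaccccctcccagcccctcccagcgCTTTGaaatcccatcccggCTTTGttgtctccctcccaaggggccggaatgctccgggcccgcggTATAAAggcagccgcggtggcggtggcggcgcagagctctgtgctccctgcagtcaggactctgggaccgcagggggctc
The WNT7A window lies at chr3:13880022-13880321 on the minus strand. Capitals mark GGGCGG and GCGTG, a form of the hypoxia response core, which reads CACGC on this strand.
WNT7A: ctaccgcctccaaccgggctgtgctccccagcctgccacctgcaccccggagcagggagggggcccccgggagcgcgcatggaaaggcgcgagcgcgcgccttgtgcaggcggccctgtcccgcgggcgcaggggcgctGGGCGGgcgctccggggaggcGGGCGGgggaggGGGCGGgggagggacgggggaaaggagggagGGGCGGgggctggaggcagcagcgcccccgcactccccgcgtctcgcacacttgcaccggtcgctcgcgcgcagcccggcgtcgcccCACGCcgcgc
Counting the start as position 0, CTTTG stands in the DKK1 window at -148, -95 and -76, GGGCGG at -166 and TATAAA at -30. In the WNT7A window GGGCGG stands at -111, -90, -78 and -47, and GCGTG at 40. Both strands were searched for these motifs, for the other hypoxia response core ACGTG and for the AP-1 site TGANTCA, and no matches overlapped in these windows. Of 35116 RefSeq windows of this length, 47.5% hold CTTTG and 45.0% hold GGGCGG. The TATA box is in 11.5%, the AP-1 site in 7.71%, GCGTG in 36.5% and its other form in 21.4%. Windows with at least 3 matches make up 4.41% for CTTTG and 15.8% for GGGCGG. Over the 33 windows of the Wnt genes, 24.2% hold CTTTG and 75.8% GGGCGG. The DKK1 window is 63.7% G and C and the WNT7A window 80.3%. These matches describe the letters and show no binding.

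Of the 4 Dickkopfs, 3 passed, against 18.5% of all genes, and they did not move one way. Of the 3, DKK2 was dim and the call of DKK3 was lost in several alternatives. DKK1, which binds LRP5 and LRP6 and blocks β-catenin signalling, had intensities of 491, 499.6 and 479 in shPKCi cells, against 132, 137 and 133 in shNT cells. Every shPKCi value was more than 3-fold every shNT value, and the replicates of each line lay close together. The log2 signal averaged 8.94 ± 0.03 in shPKCi cells and 7.06 ± 0.03 in shNT cells (SD, n = 3 each), a 3.66-fold rise (log2 fold change 1.87 ± 0.09, SE; limma adjusted p = 3.61e-06). It was the largest change of the 45 genes.

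DKK2, a close relative that binds the same co-receptors and can act for or against signalling depending on the cell, had intensities of 20.9, 22.1 and 26.5 in shPKCi cells, against 12.6, 16.7 and 13.3 in shNT cells. The groups did not overlap. The gene was dim, below the 25th percentile of all genes, and how far its signal stood above background was not tested. The measured difference was 1.63-fold (log2 fold change 0.71 ± 0.14, SE; limma adjusted p = 0.00592), with log2 averages of 4.52 ± 0.18 in shPKCi cells and 3.82 ± 0.21 in shNT cells (SD, n = 3 each).

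DKK3, a divergent Dickkopf known for lowered expression in prostate tumours, went the other way. Its intensities were 247, 223 and 242 in shPKCi cells, against 307, 351 and 292 in shNT cells. All 3 shPKCi values lay below all 3 shNT values, and the fall was 1.33-fold (log2 fold change -0.41 ± 0.11, SE; limma adjusted p = 0.0228). Without shPKCi replicate 1, 2 or 3 or without shNT replicate 1 the adjusted p was 0.0573, 0.107, 0.0613 or 0.0513. A second, dim DKK3 probe set had 18.4, 20.6 and 19.2 in shPKCi cells, against 20.7, 22.9 and 21.1 in shNT cells (log2 fold change -0.15 ± 0.10, SE; limma adjusted p = 0.355), and the mean of both probe sets gave an adjusted p of 0.0721. DKK4, which like DKK1 antagonises LRP5 and LRP6, had intensities of 13.4 to 16.9 in shPKCi cells and 13.9 to 16.9 in shNT cells (log2 fold change 0.04; limma adjusted p = 0.883). It was dim, below the 25th percentile of all genes.

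**Figure D2:**
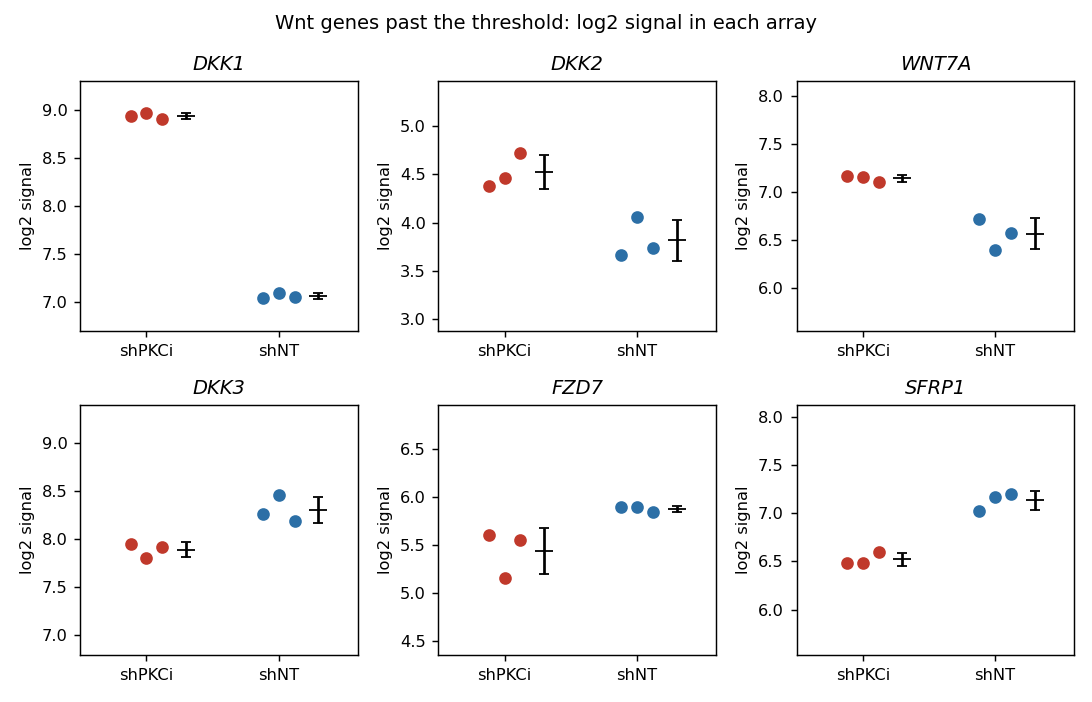
Log2 signal in each array for the 6 Wnt genes past the threshold; coloured points are single arrays, shPKCi on the left and shNT on the right of each panel, and black bars give the mean and SD of 3 arrays. Every panel spans the same log2 range. The groups do not overlap in any of the 6, which were picked by the threshold on these same arrays. Over all genes the groups do not overlap in 35.7%.

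KREMEN1, the receptor that removes LRP6 together with bound DKK1, changed in the opposite direction to DKK1. Its intensities were 75.9, 86.1 and 77.2 in shPKCi cells, against 144, 209 and 164 in shNT cells. The shPKCi values all lay below the shNT values, a 2.14-fold fall (log2 fold change -1.10 ± 0.14, SE; limma adjusted p = 0.000642). Its relative KREMEN2, chosen here after its values were seen, had 108 to 119 in shPKCi cells and 118 to 149 in shNT cells (log2 fold change -0.22; limma adjusted p = 0.239).

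Of the secreted Frizzled-related proteins, which bind Wnts away from their receptors, SFRP1 fell. It is known for silencing by methylation in many cancers. SFRP1 had intensities of 89.2, 89.7 and 97.2 in shPKCi cells, against 130.3, 144 and 148 in shNT cells. Every shPKCi value lay below every shNT value. The log2 signal averaged 6.52 ± 0.07 in shPKCi cells and 7.13 ± 0.09 in shNT cells (SD, n = 3 each), a 1.53-fold fall (log2 fold change -0.61 ± 0.10, SE; limma adjusted p = 0.00229). SFRP2 and SFRP4 were dim, with log2 fold changes of 0.03 each (limma adjusted p of 0.899 and 0.904). SFRP5 had 41.9 to 52.5 in shPKCi cells and 38.9 to 44.0 in shNT cells, with a log2 fold change of 0.15 (limma adjusted p = 0.465). WIF1, a secreted Wnt-binding inhibitor of another fold, was also dim, with a log2 fold change of 0.03 (limma adjusted p = 0.907).

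Among the 19 ligands, 1 passed. WNT7A, known for patterning the limb and the female reproductive tract, had intensities of 144, 143 and 137 in shPKCi cells, against 106, 84.5 and 95.6 in shNT cells. The shPKCi values lay close together and all above the shNT values. The rise was 1.49-fold, with log2 averages of 7.14 ± 0.04 in shPKCi cells and 6.57 ± 0.16 in shNT cells (SD, n = 3 each; log2 fold change 0.58 ± 0.11, SE; limma adjusted p = 0.00497).

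WNT7B, the closest relative of WNT7A, did not pass although its groups were separate. It had intensities of 55.3, 42.6 and 42.7 in shPKCi cells, against 34.5, 39.6 and 33.5 in shNT cells (log2 fold change 0.38 ± 0.13, SE; limma adjusted p = 0.0721). Without shNT replicate 2 the adjusted p was 0.0378, under median centring 0.0422 and under cyclic loess 0.0365. WNT7B did not pass in 12 of the 16 alternatives that tested it, and with another array left out the adjusted p reached 0.248. Whether the 2 relatives share probes was not tested.

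RECK and ADGRA2 form, with Frizzleds, a receptor for WNT7A and WNT7B that is known from brain blood vessels. RECK had intensities of 42.2, 34.5 and 47.4 in shPKCi cells, against 75.1, 67.9 and 71.3 in shNT cells. The groups were separate, and RECK fell 1.74-fold (log2 fold change -0.80 ± 0.13, SE; limma adjusted p = 0.00211). ADGRA2, named here after its values were seen, had 39.5 to 43.2 in shPKCi cells and 38.0 to 39.7 in shNT cells (log2 fold change 0.10; limma adjusted p = 0.556).

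The other 17 ligands besides the WNT7 pair had log2 fold changes of -0.36 to 0.26, and none passed. At an unadjusted p under 0.05, limma gave 3 of the 19 ligands, WNT7A, WNT7B and WNT11, all higher, against 29.7% of all genes in either direction. WNT11, a ligand of the planar polarity branch, had 38.3 to 48.9 in shPKCi cells and 34.0 to 36.8 in shNT cells (log2 fold change 0.26; limma adjusted p = 0.154). WNT3, which maintains intestinal stem cells, had 66.3 to 69.3 in shPKCi cells and 51.7 to 63.5 in shNT cells (log2 fold change 0.23; limma adjusted p = 0.180). The groups of WNT11 and WNT3 did not overlap.

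WNT1, the founding oncogene of the family in mouse, had intensities of 85.7, 97.0 and 82.4 in shPKCi cells, against 97.3, 149 and 100.1 in shNT cells (log2 fold change -0.36; limma adjusted p = 0.172). The shNT values were all higher, with replicate 2 well above the others. WNT5A, the main ligand of β-catenin-independent signalling, had 40.3, 29.4 and 25.2 in shPKCi cells, against 24.3, 25.6 and 29.4 in shNT cells (log2 fold change 0.24; limma adjusted p = 0.397). Those groups overlapped. WNT4, WNT5B and WNT10A had log2 fold changes of -0.21, -0.01 and -0.11, and their groups overlapped too. For 5 ligands that did not pass (WNT1, WNT2, WNT5A, WNT7B and WNT10B) the 95% interval reached past 1.5-fold, so a change of that size lies within the error.

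WLS, the carrier that takes Wnts to the cell surface, fell in shPKCi cells. Its intensities were 658, 700.5 and 723 in shPKCi cells, against 1035, 1066 and 994 in shNT cells. The groups were well apart, a 1.49-fold fall (log2 fold change -0.57 ± 0.09, SE; limma adjusted p = 0.00246).

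Of the 10 Frizzleds, FZD7 was the one that passed. This receptor, known for its part in intestinal stem cells, had intensities of 48.5, 35.7 and 46.8 in shPKCi cells, against 59.5, 59.6 and 57.4 in shNT cells. The shNT values were nearly equal, and shPKCi replicate 2 was the lowest. FZD7 fell 1.36-fold (log2 fold change -0.44 ± 0.13, SE; limma adjusted p = 0.0372), with log2 averages of 5.44 ± 0.24 in shPKCi cells and 5.88 ± 0.03 in shNT cells (SD, n = 3 each). The call was lost without shPKCi replicate 2 (adjusted p = 0.137), without shPKCi replicate 3 (0.0581), without each shNT replicate (0.0576 to 0.0983) and under both other scalings (0.0625 and 0.0629).

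FZD6 and FZD3 are receptors known for tissue polarity. FZD6 had 895, 809 and 816 in shPKCi cells, against 941, 724 and 970.0 in shNT cells (log2 fold change -0.05; limma adjusted p = 0.833). FZD3 had 235, 228 and 204 in shPKCi cells, against 202, 179.8 and 197 in shNT cells, separate groups that did not pass (log2 fold change 0.20; limma adjusted p = 0.220). FZD4, the receptor of Norrin, had 39.9 to 40.8 in shPKCi cells and 42.8 to 47.8 in shNT cells, also separate and not past the threshold (log2 fold change -0.18; limma adjusted p = 0.239). FZD1, FZD2, FZD5, FZD8, FZD9 and FZD10 had overlapping groups and log2 fold changes of -0.14 to 0.09. At an unadjusted p under 0.05, limma gave FZD7 alone, 1 of 10 Frizzleds, against 29.7% of all genes.

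Neither LRP co-receptor passed. LRP5 had intensities of 47.9, 42.8 and 41.5 in shPKCi cells, against 52.7, 50.2 and 58.1 in shNT cells (log2 fold change -0.29 ± 0.10, SE; limma adjusted p = 0.0934). All shPKCi values lay below the shNT values, and without shNT replicate 2 the adjusted p was 0.0477. LRP5 did not pass in 14 of the 16 alternatives that tested it, and with another array left out the adjusted p reached 0.259. LRP6 had 615, 642 and 669 in shPKCi cells, against 655, 776 and 673 in shNT cells (log2 fold change -0.12; limma adjusted p = 0.486), overlapping groups.

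The receptors and feedback genes that tune Frizzled and β-catenin levels did not pass either, and none of the 5 had an unadjusted p under 0.05 in limma. AXIN2, the scaffold that β-catenin induces in most tissues, had intensities of 27.2, 25.7 and 32.7 in shPKCi cells, against 33.6, 38.7 and 27.1 in shNT cells (log2 fold change -0.21 ± 0.15, SE; limma adjusted p = 0.401). Its groups overlapped. The R-spondin receptor LGR4 had 498, 541 and 524 in shPKCi cells, against 529, 493 and 551 in shNT cells (log2 fold change -0.01; limma adjusted p = 0.967), with a 95% interval of -0.22 to 0.20. LGR5, the other R-spondin receptor of the set, was dim, with 11.3 to 13.1 in shPKCi cells and 12.9 to 15.9 in shNT cells. The ubiquitin ligases RNF43 and ZNRF3, which remove Frizzleds from the surface, had log2 fold changes of 0.02 each (limma adjusted p = 0.933 for both).

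For the 39 Wnt genes that did not pass, the 95% interval of the log2 fold change lay within 1.5-fold either way in 34 and within 2-fold in all 39. Of the 45 genes, 17 had a positive and 28 a negative estimate. In the shNT group, replicate 2 was the highest array in 25 of the 45 genes, replicate 1 in 9 and replicate 3 in 11. The same count over all genes is not given, so it is not read as a trait of the Wnt genes. With shNT replicate 2 left out, 4 of the 45 were higher (WNT7B was added) and 3 lower (SFRP1, DKK3 and LRP5).

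**Figure D3:**
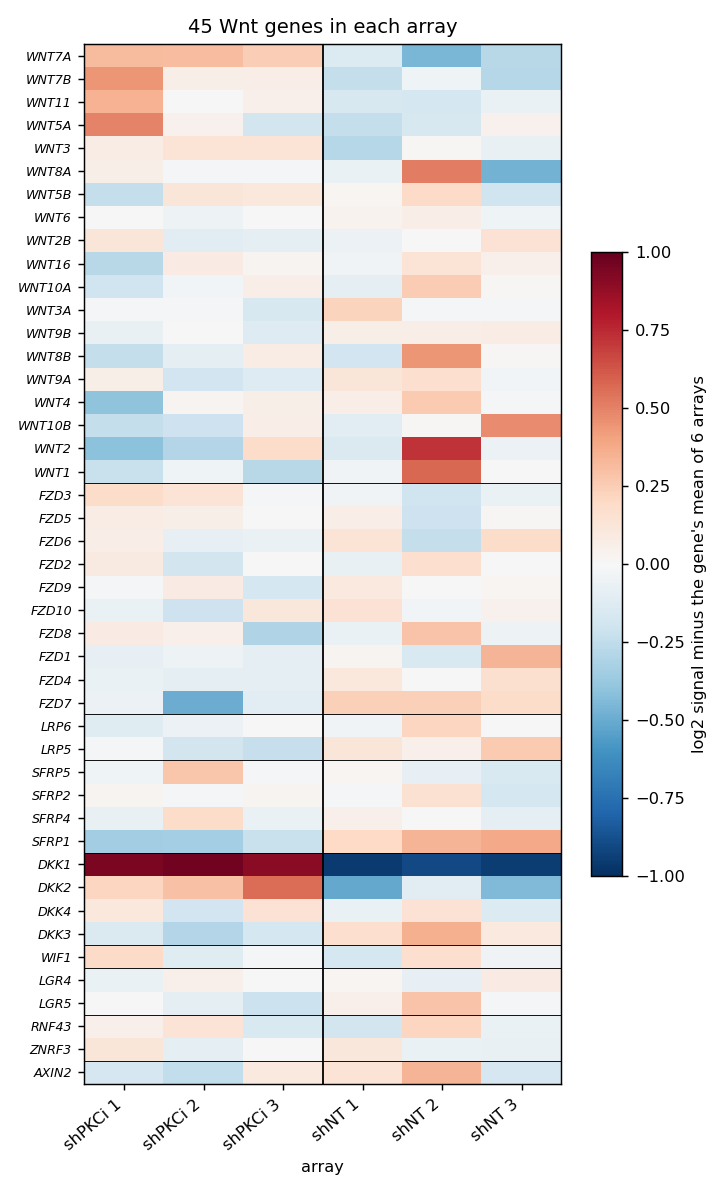
Log2 signal of each of the 45 Wnt genes in each array, minus the gene's mean over the 6 arrays (colour scale from -1 to 1, red high and blue low), genes down the page by role and arrays across, the 3 shPKCi arrays left of the line and the 3 shNT arrays right of it. DKK1 shows the strongest contrast between the lines. Replicate 2 is the highest shNT array in 25 of the 45 rows, with no count over all genes beside it.

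Other genes of the pathway were read from 6 lists that hold 124 measured genes. Of these, 6 were higher and 23 lower in shPKCi cells, against 9.55% higher and 8.95% lower of all genes. Together 23.4% passed, against 18.5% of all genes, and the median log2 fold change was -0.09, against -0.02. By mean signal, 78 of the 124 lay above the median of all genes. At such levels 29.9% of all genes passed, against 7.15% below the median. Under median centring 8 were higher and 16 lower, and under cyclic loess 6 were higher and 26 lower. Without shPKCi replicate 1, shPKCi replicate 2 or shNT replicate 3 the number lower was 12, 13 or 13. Without shPKCi replicate 2 the number higher was 3. By list, the counts of higher and lower genes were 1 and 2 of 10 for Wnt secretion, 1 and 2 of 20 for R-spondins and other extracellular modulators, and 0 and 3 of 24 for the destruction complex and Dishevelled. They were 0 and 4 of 19 for nuclear TCF and β-catenin factors, 0 and 6 of 29 for the planar polarity and calcium branch, and 4 and 6 of 26 for textbook β-catenin targets. The number of lower textbook targets was 2 without shPKCi replicate 1 or shNT replicate 3, and 3 under median centring. At an unadjusted p under 0.05, the lists with 0 higher genes had 2 for the destruction complex, 1 for the nuclear factors and 2 for the planar polarity branch, against 15.0% of all genes.

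Besides WLS and RECK, the secretion list held TINAGL1, a matrix protein, which rose (log2 fold change 0.45; limma adjusted p = 0.0480). Among the extracellular modulators, besides KREMEN1, the planar polarity pseudokinase PTK7 fell (log2 fold change -0.34; limma adjusted p = 0.0462). CER1, a secreted antagonist of Nodal, BMP and Wnt, rose but was dim (log2 fold change 0.31; limma adjusted p = 0.0421). These 3 lost their call in several alternatives, with adjusted p of up to 0.156.

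CTNNB1, which encodes β-catenin itself, had intensities of 1743, 1735 and 1558 in shPKCi cells, against 1992, 1838 and 2073 in shNT cells (log2 fold change -0.23 ± 0.10, SE; limma adjusted p = 0.156). The groups were separate, and under cyclic loess the adjusted p was 0.0239. CTNNB1 did not pass in 16 of the 17 alternatives, and with 1 array left out the adjusted p reached 0.385. In the list of the destruction complex and Dishevelled, TNKS, the tankyrase that marks Axin for degradation, fell. TNKS had 166, 167 and 154 in shPKCi cells, against 264, 295 and 285 in shNT cells (log2 fold change -0.79 ± 0.10, SE; limma adjusted p = 0.000513). DVL3, a Dishevelled that relays the receptor signal, and BTRC, which recognises phosphorylated β-catenin, had log2 fold changes of -0.40 and -0.35 (limma adjusted p of 0.0281 and 0.0496), calls that several alternatives lost.

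Among the nuclear factors, the Groucho co-repressor TLE4 had intensities of 136, 155 and 148 in shPKCi cells, against 238, 238 and 247 in shNT cells (log2 fold change -0.72; limma adjusted p = 0.000813). The groups were far apart. TCF7L1, the TCF known mostly as a repressor, had 222, 257 and 276 in shPKCi cells, against 375, 403 and 377 in shNT cells (log2 fold change -0.62; limma adjusted p = 0.00358). TLE2, another Groucho, and TBL1X, which binds β-catenin on chromatin, also fell (log2 fold changes -0.39 and -0.37; limma adjusted p of 0.0387 and 0.0363), with calls that several alternatives lost.

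In the planar polarity and calcium branch, 6 of 29 genes passed (20.7%, near the 18.5% of all genes), and these 6 fell. At an unadjusted p under 0.05, limma gave 2 higher and 8 lower, against 15.0% and 14.7% of all genes. CAMK2D, a calcium/calmodulin kinase, had intensities of 199, 188 and 166 in shPKCi cells, against 497, 274 and 478 in shNT cells (log2 fold change -1.13 ± 0.21, SE; limma adjusted p = 0.00449). The groups were separate, and shNT replicate 2 lay well below the other shNT values. CELSR2, an atypical cadherin of planar polarity, fell 1.79-fold (log2 fold change -0.84; limma adjusted p = 0.00146). VANGL2, a core polarity protein of the membrane, fell 1.53-fold (log2 fold change -0.61; limma adjusted p = 0.00319), and its partner PRICKLE2 fell 1.40-fold (log2 fold change -0.48; limma adjusted p = 0.00871).

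Of the textbook β-catenin targets, CCND1, which encodes cyclin D1, had intensities of 612, 655 and 742 in shPKCi cells, against 289, 332 and 296 in shNT cells. All shPKCi values were far above the shNT values, a 2.19-fold rise (log2 fold change 1.13 ± 0.11, SE; limma adjusted p = 0.000143). BIRC5, the survivin gene, which also follows the cell cycle, rose 1.73-fold (log2 fold change 0.79; limma adjusted p = 0.00479). NEDD9, a scaffold of adhesion signalling, fell 1.55-fold (log2 fold change -0.63; limma adjusted p = 0.00304), and TCF4, the E2-2 gene and not the TCF/LEF factor TCF7L2, fell 1.58-fold (log2 fold change -0.66; limma adjusted p = 0.00505). The list thus held changes both ways, and AXIN2, also a target, did not pass.

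**Figure D4:**
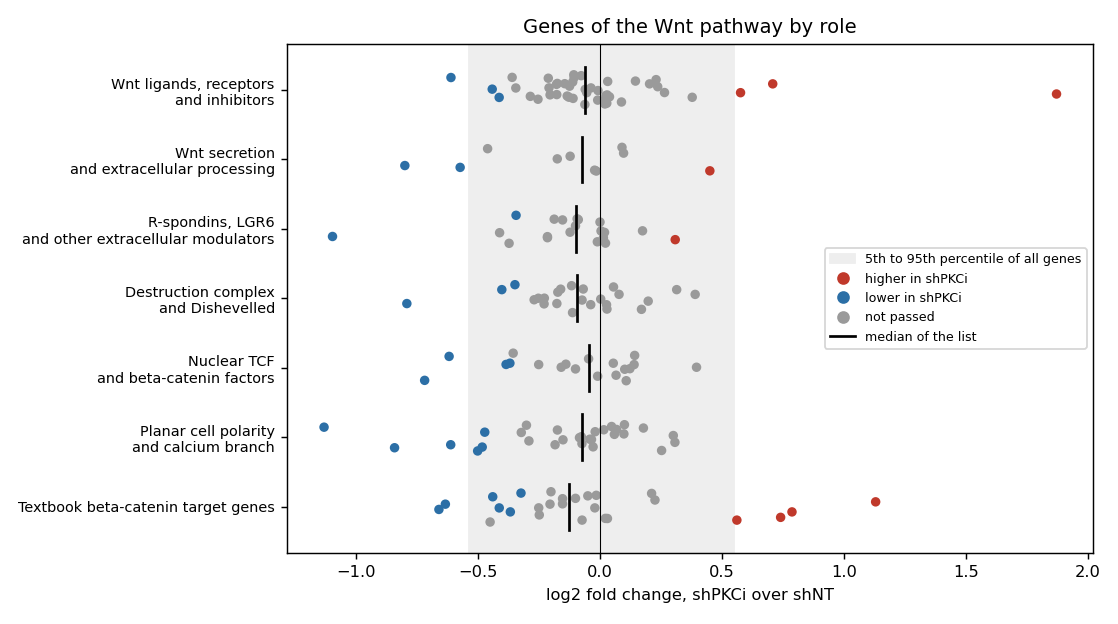
Log2 fold change, shPKCi over shNT, of each of the 45 Wnt genes (top row) and of each measured gene in the 6 lists of other pathway genes (lower rows); red marks genes higher and blue genes lower in shPKCi cells past the threshold, grey points did not pass, black bars are list medians, and the grey band spans the central range of all genes named in the legend. In the main fit blue points outnumber red in each of the 6 lower rows, 23 against 6 in all. Over all genes 8.95% were lower and 9.55% higher. The split by list depends on single arrays and on scaling.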

How the data were processed

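Total RNA of 3 shPKCi and 3 shNT samples, grouped by their titles, was biotin-labelled and hybridised to expression arrays. The authors deposited linear-scale intensities for 32321 probe sets and 6 arrays. RMA (background correction, quantile normalisation, summarisation) is the tool that the submitters' processing notes name; the sources used here give neither a version nor a genome build. RMA usually returns log2, so the return to a linear scale was inferred from the values.

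Intensities were transformed to log2. Symbols came from the platform annotation: 19158 probe sets had 1 symbol, 1388 several and 11775 were not listed. Per gene the probe set of highest mean was kept, giving 18404 genes, with no filter on low values. Levels of different probe sets were compared only as signal ranks and in the sums over cell marker lists. Groups were compared with limma 3.58.1 (lmFit, eBayes) in R 4.3.3, without covariates, with Benjamini-Hochberg adjustment over all genes and a threshold of 0.05; the fit was tested on simulated data. The members, the lists of other pathway genes and cell markers, and the alternatives were chosen with earlier results of these data known. Named were all members, PRKCI, CTNNB1 and up to 4 passing genes of each pathway list with the smallest adjusted p; KREMEN2 and ADGRA2 were added with their values in view, as were the cell markers given with values. The main fit did not pair arrays by replicate number, and whether same-numbered samples were prepared together was not settled. Alternatives tried were leaving out each array, a replicate block, other scalings, signal filters, other probe set choices, other variance models and stricter thresholds.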

Additional observations from a re-analysis of the deposited data

How the results depend on the processing

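No value reversed among called genes under the 17 alternatives. DKK1 kept its call in all 17. SFRP1 and WNT7A kept theirs in all but the test against a fold of 1.5 (limma's treat), as did DKK2 in the 15 that tested it, since both signal filters left it out. With each array left out in turn, the adjusted p of SFRP1, WNT7A and DKK2 reached 0.0166, 0.0273 and 0.0273. The calls of DKK3 and FZD7 were lost as given above, and the number of lower Wnt genes was 1 to 3: SFRP1 alone without shPKCi replicate 2, shPKCi replicate 3 or shNT replicate 1. Over all genes these fits gave 997 to 1935 higher and 1048 to 1959 lower, with 1072, 997 and 1165 higher without shPKCi replicates 1, 2 and 3 and 1057 and 1048 lower without shPKCi replicates 1 and 2, and for the other pathway genes 3 to 8 higher and 12 to 23 lower. At an adjusted p of 0.01, 870 genes were higher and 902 lower. Of the Wnt genes 3 were higher and 1 lower, and of the other pathway genes 2 were higher and 12 lower. With treat, 88 genes were higher and 180 lower, 1 Wnt gene (DKK1) was higher and 0 lower (0 at an unadjusted p under 0.05), and 1 other pathway gene was higher and 0 lower (4 at an unadjusted p under 0.05). Array weights gave 5 higher Wnt genes, adding WNT7B and WNT3, and 4 lower, adding LRP5. The replicate block gave 1537 higher and 1441 lower over all genes, the same 3 higher and 3 lower Wnt genes, and 5 higher and 17 lower other pathway genes. Deviations of same-numbered arrays from their group means correlated at 0.12, -0.06 and -0.18, and those of differently numbered arrays at -0.17 to 0.21. With 3 arrays a group these linked values cannot show whether same-numbered samples were prepared together. Over all genes the median log2 fold change was -0.02 as reported, 0.04 under median centring and -0.001 under cyclic loess. Of the 39 Wnt genes that did not pass, 15 changed sign in some alternative without a call, and LRP5, WNT3 and WNT7B passed in at least 1. The causes of these changes were not tested. Of the 45 genes, 10 lay below the 25th percentile of signal, where a change may not be seen.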

Other observations

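Some Wnt genes lie next to each other among protein-coding genes, and their values were set side by side. On chromosome 12, WNT10B and WNT1 had log2 fold changes of -0.25 and -0.36 (limma adjusted p of 0.330 and 0.172). On chromosome 17, WNT3 and WNT9B had 0.23 and -0.13 (0.180 and 0.381). On chromosome 2, WNT6 and WNT10A had -0.04 and -0.11 (0.841 and 0.610). None of these 6 genes passed the threshold.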
